A study of Homo sapiens with 2 samples.

Results

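The 10 genes described here, GALNT1, GALNT2, GALNT3, GALNT5, GALNT6, GALNT7, GALNT10, GALNT11, GALNT12 and GALNT14, encode polypeptide N-acetylgalactosaminyltransferases. They are 10 of 58884 genes in the expression table and belong to a family of 20. The list was chosen by name with earlier results of these data known, that is, selected on the same TPM values and differences that are described here. RNA of TPC-1 cells was sequenced in 2 libraries. TPC-1 is a papillary thyroid cancer line of human origin that carries a CCDC6-RET fusion. One library came from TPC-1 cells given an siRNA against XPR1, the phosphate exporter of human cells, and the other from TPC-1 cells given a control siRNA. No other treatment or genotype is named for either group, and neither siRNA sequences nor a harvest time is given in the sources used here. Each group is 1 library of 1 cell line. No replicate check and no test of the difference was therefore possible, and every difference below describes these libraries.

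GALNT enzymes sit in the Golgi and attach the first sugar, N-acetylgalactosamine (GalNAc), to serine or threonine of proteins that pass through. This begins mucin-type O-glycosylation. C1GALT1, which needs the chaperone C1GALT1C1, then adds galactose to make the core 1 structure, and further enzymes branch, extend and sialylate the chain. Many GALNT enzymes act on bare peptides, whereas GALNT7 and GALNT10 prefer peptides that already carry GalNAc. The isoenzymes overlap in their targets, but some proteins depend on a single one, as the phosphate-regulating hormone FGF23 depends on GALNT3.

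XPR1 transcript, the check of the knockdown, was 5.31 TPM in the XPR1-siRNA library, against 39.2 TPM in the control-siRNA library. TPM (transcripts scaled to a fixed library total) is a length-corrected share of a library's transcripts, so levels of different genes can be set side by side. The level after XPR1 siRNA was 13.5% of control (95% Clopper-Pearson interval 11.6% to 15.7%). Intervals rest on reads reconstructed from TPM and exon length, about 15150000 in the XPR1-siRNA library and 15780000 in the control-siRNA library. They cover counting error only and no variation between cultures, since each group is 1 library. PCR copies of a molecule cannot be recognised in these libraries, so the intervals could be too narrow. Of the thyroid markers PAX8 was at 409 TPM after XPR1 siRNA and 588 TPM in control, FOXE1 at 13.7 TPM after XPR1 siRNA and 11.1 TPM in control, and HHEX at 12.3 TPM after XPR1 siRNA and 13.0 TPM in control, while NKX2-1, TSHR and SLC5A5 were listed at 0 in both. The 6 epithelial markers summed to 135 TPM after XPR1 siRNA and 197 TPM in control, mostly KRT18 and KRT8, and EPCAM was at 0 in both. The 8 leukocyte markers summed to 1.51 TPM after XPR1 siRNA and 1.78 TPM in control, and none averaged 1 TPM. The 6 endothelial markers summed to 2.92 TPM after XPR1 siRNA and 6.93 TPM in control. The 6 fibroblast markers summed to 7.85 TPM after XPR1 siRNA and 1.52 TPM in control, mostly COL1A1 at 6.67 TPM after XPR1 siRNA and 1.04 TPM in control. The leukocyte markers CD3E and MS4A1 and the fibroblast marker DCN were at 0 in both libraries. The part of these markers in the differences below was not tested. In bulk RNA, fewer expressing cells and less RNA per cell cannot be told apart.

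GALNT transcripts were more abundant in the XPR1-siRNA library. The TPM of the 10 members summed to 649.8 ± 5.02 after XPR1 siRNA and 306.9 ± 3.43 in control (± counting SE, 1 library each), a ratio of 2.12. GALNT2, the most abundant member in both libraries, gave 48.2% of that gain. Without GALNT2 the remaining 9 summed to 396 ± 4.14 TPM after XPR1 siRNA and 218 ± 3.01 TPM in control, a ratio of 1.81. The members carried 98.8% of the family's summed TPM after XPR1 siRNA and 95.9% in control.

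Over 45 pairs, the longest coding sequences (GENCODE 29) shared between 53.7% and 63.4% of aligned bases, and the closest pair was GALNT3 and GALNT6. The longest unbroken stretch common to any pair was 20 bases, found in 4 pairs. These stretches are shown because they are the longest pieces of coding sequence that any pair of members has in common:
GALNT2 and GALNT3: gtctggatggatgaatacaa
GALNT2 and GALNT6: ctggctggagcccctcctgg
GALNT5 and GALNT10: ttcaaggtgtggatgtgtgg
GALNT6 and GALNT10: tggagatctggggaggggag
No stretch of 50 bases of any member's transcripts occurred in transcripts of another member. Against all other genes, 8 members shared no 50-base stretch, GALNT6 shared 0.215% of its stretches and GALNT10 shared 1.07%, most of them with its neighbour MFAP3. The library kit does not mark strand, and reads of exons on the opposite strand cannot be separated. Such exons covered 21.1% of the exon bases of GALNT12 and 13.3% of those of GALNT2, where the genes lying there had at most 0.155 TPM in either library. For GALNT7 they covered 5.74% and 1.43%, and the genes there had at most 5.0 TPM. For GALNT6 the figure was 5.34%, opposite SLC4A8 with 1.26 TPM after XPR1 siRNA and 2.62 TPM in control.

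The windows from 250 bases before to 50 bases after the start were taken from RefSeq (GRCh38.p14) for 8 members, with several starts for GALNT1 and GALNT14. GALNT5 and GALNT6 are named only. The 4 windows shown are those of GALNT2, GALNT7 and GALNT12, members at least 2-fold higher with a single RefSeq start, and that of GALNT11, which was not 2-fold higher and stands for the members' windows without a GC box. Capitals mark the GC box, GGGCGG or its reverse complement CCGCCC, overlapping matches included:
GALNT2, chr1:230066988-230067287, plus strand: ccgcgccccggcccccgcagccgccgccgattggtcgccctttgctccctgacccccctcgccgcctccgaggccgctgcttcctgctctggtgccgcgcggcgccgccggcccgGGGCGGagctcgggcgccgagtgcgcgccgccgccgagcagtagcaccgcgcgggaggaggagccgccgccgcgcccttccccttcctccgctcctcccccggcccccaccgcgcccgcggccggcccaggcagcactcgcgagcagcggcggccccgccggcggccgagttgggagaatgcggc
GALNT7, chr4:173168561-173168860, plus strand: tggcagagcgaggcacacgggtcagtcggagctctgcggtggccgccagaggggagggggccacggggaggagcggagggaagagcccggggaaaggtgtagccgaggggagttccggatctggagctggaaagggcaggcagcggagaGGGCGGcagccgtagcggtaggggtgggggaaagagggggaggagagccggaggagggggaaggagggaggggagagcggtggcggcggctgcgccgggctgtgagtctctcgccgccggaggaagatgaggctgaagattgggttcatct
GALNT12, chr9:98807420-98807719, plus strand: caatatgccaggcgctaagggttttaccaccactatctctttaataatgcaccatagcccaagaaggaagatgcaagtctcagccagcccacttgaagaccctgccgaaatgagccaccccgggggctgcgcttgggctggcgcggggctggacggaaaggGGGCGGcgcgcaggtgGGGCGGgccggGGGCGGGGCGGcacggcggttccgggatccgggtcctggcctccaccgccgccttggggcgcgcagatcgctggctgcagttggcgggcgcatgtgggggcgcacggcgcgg
GALNT11, chr7:152074787-152075086, plus strand: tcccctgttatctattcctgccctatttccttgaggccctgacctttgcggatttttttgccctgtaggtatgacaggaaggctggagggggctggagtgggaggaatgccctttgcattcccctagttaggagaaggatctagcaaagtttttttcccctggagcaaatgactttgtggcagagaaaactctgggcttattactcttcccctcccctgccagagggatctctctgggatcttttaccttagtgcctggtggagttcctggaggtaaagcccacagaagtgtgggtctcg
The GALNT2 window was 82% G or C and held 1 GC box, the GALNT7 window 69.7% with 1, and the GALNT12 window 68.7% with 4. The GALNT11 window was 51.3% G or C and held none. That window begins at 152074787, inside the gene, whose listed span begins at 152025674. The GALNT2 window, from 230066988, also lies inside its gene, whose span begins at 230057990. Sequence at the outermost start of either gene was not examined, so the GALNT11 window does not show whether a GC box lies there. Over all 35116 RefSeq windows the median was 58.7%, and 45.0% of windows held a GC box. Of the members' 11 windows 8 held one. Members that were not 2-fold higher also held GC boxes, GALNT10 with 4, GALNT3 with 2 and the first GALNT14 window with 3. The second GALNT14 window held none, and neither did the first window of GALNT1, a member at least 2-fold higher. Whether GC boxes go with the difference was not tested. The CCAAT box (CCAAT, both strands) was in 5 of the members' 11 windows and in 34.6% of all windows. A further 6 motifs were searched on both strands and were in no member's window. The TATA box (TATAAA) is in 11.5% of all windows and the E-box (CACGTG) in 7.26%. The cAMP response element (TGACGTCA) is in 1.85% and the AP-1 site (TGANTCA) in 7.71%. The E2F site (TTTNGCGC) is in 1.79% and the ETS site (CCGGAAGT) in 4.14%. A match describes letters in the window and is not a measured binding site.

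**Figure D1:**
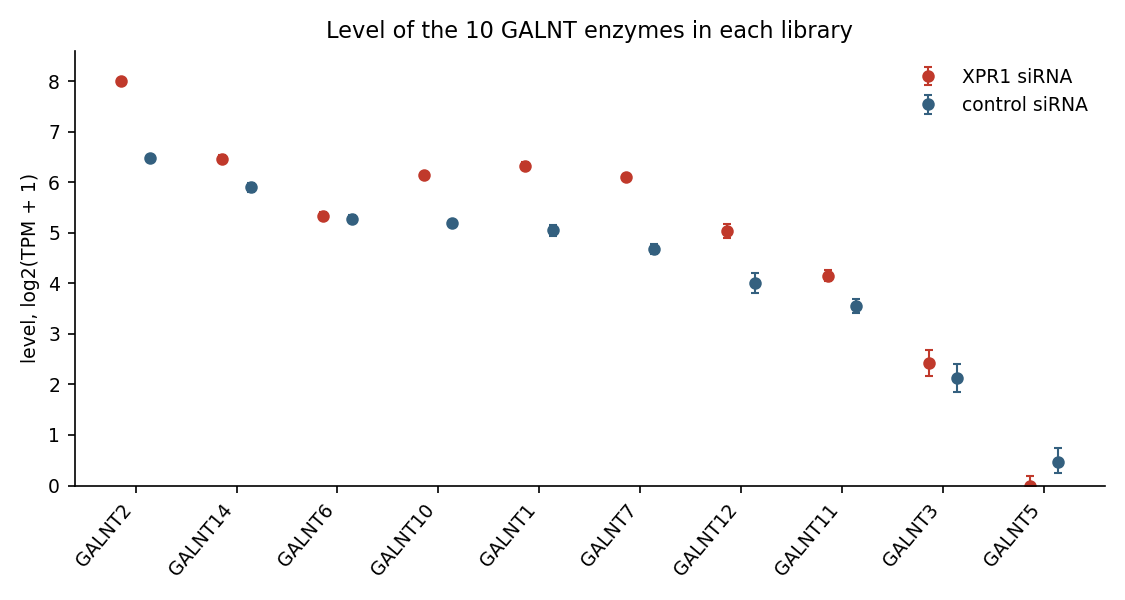
Level of each of the 10 enzymes as log2(TPM + 1), XPR1 siRNA in red and control siRNA in blue, 1 library each, with exact Poisson intervals (95%) as bars. GALNT2 was highest in both libraries, at 254 TPM after XPR1 siRNA and 88.6 TPM in control, and GALNT5 lowest, at 0 TPM after XPR1 siRNA and 0.388 TPM in control.

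Among enzymes that act broadly on bare peptides, GALNT2 and GALNT1 stood well above control. GALNT2 (ENSG00000143641, GRCh38 chromosome 1, 230057990 to 230282124), known for modifying proteins of lipid metabolism such as PLTP, had 254 TPM in the XPR1-siRNA library and 88.6 TPM in the control-siRNA library. That is 2.87-fold higher (2.75 to 2.99), from about 7979 reads after XPR1 siRNA and 2894 in control. In rank of level it was number 443 among protein-coding genes after XPR1 siRNA and number 1458 in control. GALNT1 (ENSG00000141429, chromosome 18, 35581117 to 35711834), a ubiquitous isoenzyme that mice need for normal blood clotting, had 79.3 TPM after XPR1 siRNA and 32.1 TPM in control, 2.47-fold higher (2.26 to 2.70). Both intervals lay above 2.

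GALNT14 (ENSG00000158089, chromosome 2, 30910467 to 31155202) is a close relative of GALNT2 and is known for modifying the TRAIL death receptors. It had 87.3 TPM after XPR1 siRNA and 58.7 TPM in control, 1.49-fold higher (1.38 to 1.61). The interval of its ratio lay wholly below that of GALNT2. GALNT2 exceeded GALNT14 by 2.91 times after XPR1 siRNA and by 1.51 times in control.

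The enzymes that follow up on GalNAc already in place were both higher. GALNT7 (ENSG00000109586, chromosome 4, 173168753 to 173323967) had 68.0 TPM after XPR1 siRNA and 24.7 TPM in control, 2.75-fold higher (2.52 to 3.0). GALNT10 (ENSG00000164574, chromosome 5, 154190730 to 154420984) had 69.3 TPM after XPR1 siRNA and 35.4 TPM in control, 1.96-fold higher (1.84 to 2.08). Their levels were within counting error of each other after XPR1 siRNA, while in control GALNT10 exceeded GALNT7 by 1.43 times.

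GALNT12 (ENSG00000119514, chromosome 9, 98807699 to 98850081), best known from the digestive tract, had 31.7 TPM after XPR1 siRNA and 15.1 TPM in control, 2.10-fold higher (1.77 to 2.50). GALNT11 (ENSG00000178234, chromosome 7, 152025674 to 152122347), which modifies NOTCH1 and the linkers of LDL receptor family proteins, had 16.8 TPM after XPR1 siRNA and 10.8 TPM in control, 1.56-fold higher (1.36 to 1.78). Both enzymes were modest in level, below GALNT6 in both libraries.

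GALNT3 and GALNT6, the most similar pair in coding sequence, were the closest to control among the 9 members averaging 1 TPM or more. GALNT6 (ENSG00000139629, chromosome 12, 51351247 to 51392867), which modifies fibronectin in breast cancer cells, had 39.3 TPM after XPR1 siRNA and 37.8 TPM in control, from 1173 reads in each library. The ratio of 1.04 had an interval from 0.958 to 1.13, which includes equality, and the sign of the difference turned under upper-quartile and trimmed-mean scaling. GALNT3 (ENSG00000115339, chromosome 2, 165747591 to 165794682), whose loss in people causes tumoral calcinosis with high blood phosphate, had 4.36 TPM after XPR1 siRNA and 3.39 TPM in control, from 83 and 67 reads. Its ratio of 1.29 had an interval of 0.922 to 1.80, so a difference was not detectable at this depth. FGF23, chosen after its value was seen, was at 0 TPM in both libraries.

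GALNT5 (ENSG00000136542, chromosome 2, 157257598 to 157314211) was the rarest member. It was listed at 0 TPM after XPR1 siRNA and 0.388 TPM in control, where it had about 11 reads. Set against the 3 reads that a count of 0 allows (0.108 TPM), the control level was 3.58 times as high. With the counting error of the control reads included, the interval of the difference began at 2.41-fold lower. It was the 1 member below a mean of 1 TPM and was left out of the counts that follow.

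**Figure D2:**
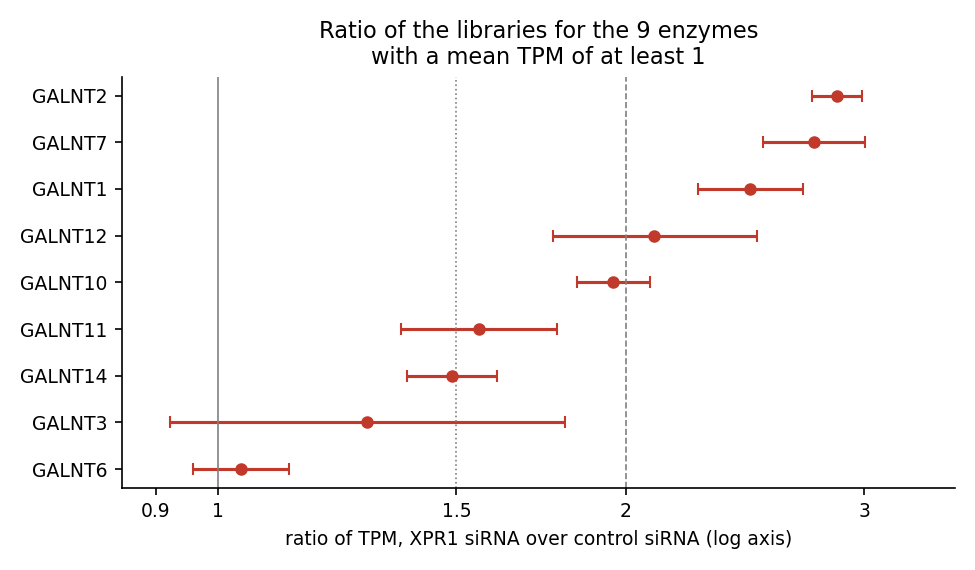
Ratio of TPM, XPR1 siRNA over control siRNA, on a log axis for the 9 enzymes averaging 1 TPM or more, with Clopper-Pearson intervals (95%, counting error only). Lines mark ratios of 1, 1.5 and 2. GALNT2, GALNT7 and GALNT1 lay wholly above 2, and the intervals of GALNT6 and GALNT3 crossed 1.

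For counts, differences were taken as log2(TPM + 1) after XPR1 siRNA minus control, a scale that understates changes of low genes. Of the 9 members compared, 4 were at least 2-fold higher, GALNT2 by 1.51, GALNT7 by 1.42, GALNT1 by 1.28 and GALNT12 by 1.02 on that scale. None was at least 2-fold lower. Over all 16319 genes averaging 1 TPM or more the shares were 10.4% higher and 8.57% lower, and over the 11698 protein-coding genes among them 8.75% and 4.57%. At 1.5-fold, 6 members were higher and none lower, where 21.7% of all genes were higher and 16.6% lower. The members were chosen with these values known, so nothing is read from the counts. GALNT12 was just inside the 2-fold line and GALNT10, at 0.95, just outside it. GALNT12 dropped below the line under the 3 scalings tried (0.94 to 0.97) and with a pseudocount of 5 (0.87). GALNT11, at 0.59, was just inside the 1.5-fold line, and GALNT14, at 0.57, just outside it.

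**Figure D3:**
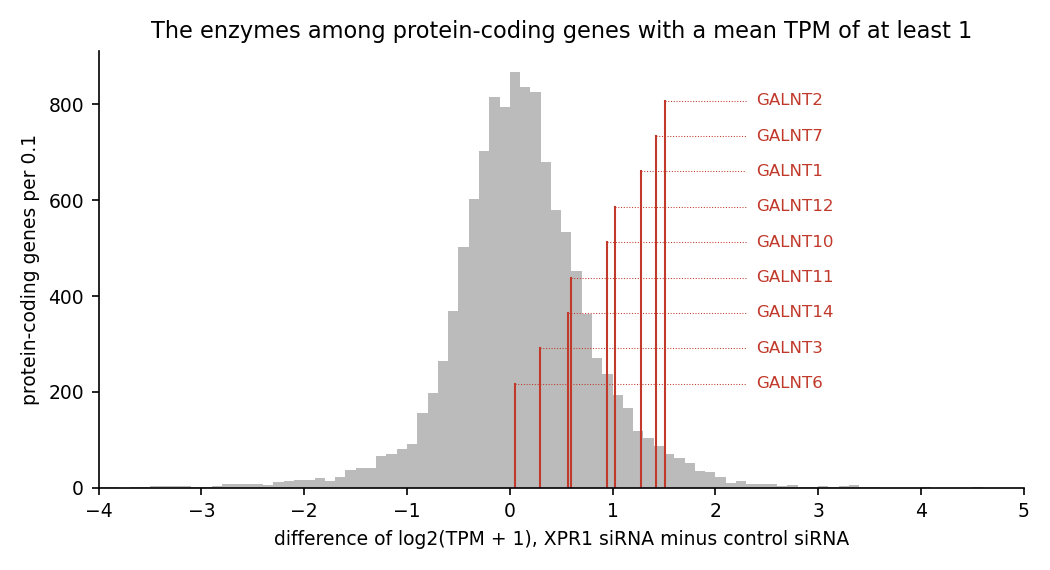
Histogram of the difference of log2(TPM + 1), XPR1 siRNA minus control siRNA, over the 11698 protein-coding genes averaging 1 TPM or more, in steps of 0.1 and drawn from -4 to 5. Red lines place the 9 enzymes, from GALNT6 at 0.05 to GALNT2 at 1.51.

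The median difference over all 10 members was 0.77, against 0.05 over all genes and 0.10 over protein-coding genes. Counted from the highest difference among the 11698 protein-coding genes, GALNT2 was number 347, GALNT7 number 416, GALNT1 number 575 and GALNT12 number 979. GALNT10 was number 1131, GALNT11 number 2377 and GALNT14 number 2521. GALNT3, at number 4235, and GALNT6, at number 6196, lay nearer the middle of that order.

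The order of the levels changed below the first 2 places. After XPR1 siRNA the order was GALNT2, GALNT14, GALNT1, GALNT10, GALNT7, GALNT6, GALNT12, GALNT11, GALNT3 and GALNT5. In control GALNT2 and GALNT14 came first again, then GALNT6, ahead of GALNT10, GALNT1, GALNT7, GALNT12, GALNT11, GALNT3 and GALNT5. The counting intervals of GALNT14 and GALNT1, and of GALNT10 and GALNT7, overlapped after XPR1 siRNA, as did those of GALNT6 and GALNT10, and of GALNT10 and GALNT1, in control. All other neighbours were apart by more than counting error.

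The make-up of the summed TPM shifted toward GALNT2. GALNT2 supplied 39.1% of it after XPR1 siRNA and 28.9% in control. GALNT6 supplied 6.05% after XPR1 siRNA and 12.3% in control, and GALNT14 supplied 13.4% after XPR1 siRNA and 19.1% in control. The shares of GALNT12, at 4.88% after XPR1 siRNA and 4.93% in control, differed least of the 10.

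**Figure D4:**
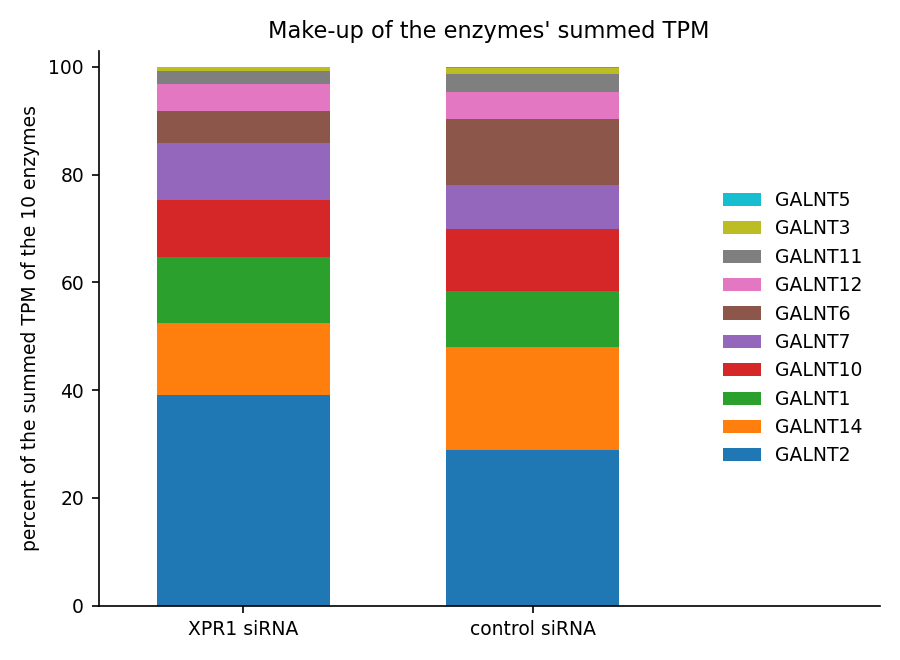
Percent of the summed TPM of the 10 enzymes held by each, XPR1 siRNA at left and control siRNA at right, 1 library each. The GALNT2 segment was 39.1% after XPR1 siRNA and 28.9% in control, and the GALNT6 segment 6.05% after XPR1 siRNA and 12.3% in control.

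The rest of the family was scarce. The other 10 GALNT family genes summed to 7.89 ± 0.528 TPM after XPR1 siRNA and 13.3 ± 0.672 TPM in control (± counting SE). GALNT9, an isoenzyme best known from brain, was the most abundant of them in control, with 2.90 TPM after XPR1 siRNA and 11.4 TPM in control, 3.94-fold lower (3.09 to 5.08). An antisense gene, GALNT9-AS1, is named for this locus, and without strand the reads of the pair cannot be told apart where exons overlap. GALNT16, a relative of GALNT2 and GALNT14, had 3.37 TPM after XPR1 siRNA and 0.992 TPM in control, 3.40-fold higher (2.43 to 4.89). GALNT18 had 1.29 TPM after XPR1 siRNA and 0.327 TPM in control, from 19 and 5 reads. GALNT13, GALNT17 and GALNTL5 were at 0 in both libraries, and GALNT4, GALNT8, GALNT15 and GALNTL6 rested on at most 5 reads in either.

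The genes around GALNT action were described in 11 lists of 185 family and glycosylation genes. Of the 139 averaging 1 TPM or more, 32 were higher by 1.5-fold or more and 17 lower, near the shares of 21.7% and 16.6% over all genes and 20.7% and 11.1% over protein-coding genes, so these counts single out nothing about the lists. C1GALT1C1, the chaperone of core 1 synthesis, was 30.4 TPM after XPR1 siRNA and 15.7 TPM in control, while the core 1 enzyme C1GALT1 itself was 21.7 TPM after XPR1 siRNA and 17.4 TPM in control. Of 3 expressed branching genes, 2 were higher and none lower by 1.5-fold, and these were the core 2 enzymes GCNT1 at 34.4 TPM after XPR1 siRNA and 11.4 TPM in control and GCNT3 at 75.1 TPM after XPR1 siRNA and 32.2 TPM in control. In the elongation list 3 of 8 were higher and 2 lower, with B4GALT5 at 277 TPM after XPR1 siRNA and 113 TPM in control. The 2 lower were B4GALT1, at 203 TPM after XPR1 siRNA and 324 TPM in control, and B3GNT5. B3GNT5 was at 13.0 TPM after XPR1 siRNA and 23.0 TPM in control. In the sialylation and fucosylation list 2 of 9 were higher and 3 lower. Among the lower was ST3GAL1, which caps core 1 with sialic acid, at 168 TPM after XPR1 siRNA and 407 TPM in control. The 2 higher were ST6GALNAC3 and FUT8, an enzyme of N-glycans. ST6GALNAC3 was at 3.52 TPM after XPR1 siRNA and 0.986 TPM in control, and FUT8 at 59.6 TPM after XPR1 siRNA and 28.5 TPM in control.

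Of 21 genes that supply the sugar donors, 5 were higher and 3 lower, again close to the shares over all genes, with a median difference of 0.14. Under each of the 3 scalings 2 were higher and 3 lower. GFPT2, which starts hexosamine synthesis, had the lowest difference of these genes, at 23.3 TPM after XPR1 siRNA and 81.6 TPM in control. GALK1 had the highest, at 16.6 TPM after XPR1 siRNA and 6.72 TPM in control. Golgi structure and coat genes had a median of 0.01, with 4 of 31 higher and 3 lower. Under the 3 scalings 2 were higher and 3 to 5 lower, so the balance of the counts turned. N-glycan genes had a median of 0.23, with 3 of 28 higher and 2 lower. In the list of other initiators of protein O-glycosylation, 5 of 16 were higher and 1 lower, with a median of 0.45. The lower gene was OGT, at 89.1 TPM after XPR1 siRNA and 173 TPM in control. That list also holds OGA, which removes a sugar and is not an initiator. The members' own median over the 9 compared was 0.95, a value that the choice of members fixed in part.

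**Figure D5:**
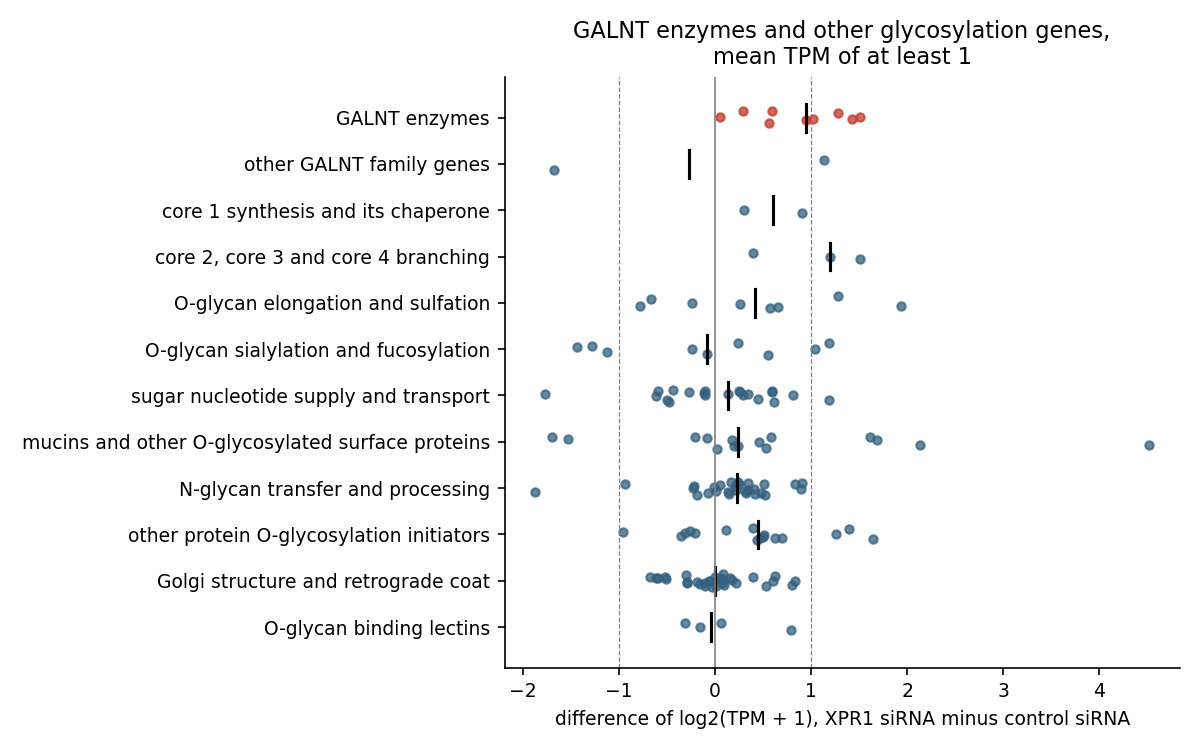
Difference of log2(TPM + 1), XPR1 siRNA minus control siRNA, for genes averaging 1 TPM or more in each list. The 9 GALNT enzymes are red, other lists blue, black bars are medians, and dashed lines mark 2-fold. The enzymes lay between 0.05 and 1.51, and Golgi structure genes centred on 0.01.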

How the data were processed

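The authors deposited TPM values for 58884 Ensembl genes in 1 table with both libraries, and each column sums to 1000000. Per the submitters' processing notes, Trimmomatic 0.38, featureCounts 2.0.0, FastQC, MultiQC and build GRCh38 were used, without stated roles. No aligner or annotation release is named there. Per the labels' protocols, RNeasy Plus and TruSeq RNA v2 kits were used. TPM is relative to each library's total, so a change of abundant genes shifts all others.

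From the deposited TPM, differences of log2(TPM + 1) were computed with NumPy 2.4.6 and pandas 2.3.3 for genes averaging 1 TPM or more. Symbols came from a gene name table, which matched 58472 identifiers, and otherwise from GENCODE 29, which also gave exon lengths and coordinates. TPM times exon length fell on whole multiples of 1 step per library (246 after XPR1 siRNA, 237 in control). It gave whole reads within 0.01 for 92.4% (XPR1 siRNA) and 92.2% (control) of low genes, those at 10 reads or fewer, but for 55.5% of protein-coding genes in each. Only 4 of the 10 members came out whole in both libraries, so reads of the others, and their intervals (SciPy 1.17.1), are approximate. This recovery was chosen after seeing the data. The calculation was tested on data simulated with the same exon lengths. That test cannot show how it fares for genes whose lengths do not give whole reads. Members and lists were chosen with earlier results of these data known. Named were the members, XPR1, the other family genes by level and, from each other list, at most the 4 largest differences, besides genes marked as chosen later. OGA, FUT8 and TNC were also named later, to show what their lists hold.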

Additional observations from a re-analysis of the deposited data

How the results depend on the processing

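No paired analysis was possible because neither group has a second library, and leaving one out would empty its group. Over 10 alternatives (scaling by trimmed mean, upper quartile or median of ratios, omission of mitochondrial genes, pseudocounts of 0.1 and 5, floors of 0.1 and 5 TPM, protein-coding genes only, and recovered reads, added after seeing the data), the median difference of the 10 members ranged from 0.69 to 0.80. GALNT2 stayed between 1.42 and 1.52, GALNT7 between 1.30 and 1.46 and GALNT1 between 1.18 and 1.30. Under the 3 scalings and with a pseudocount of 5, 3 members were at least 2-fold and 5 at least 1.5-fold higher, since GALNT12 and GALNT11 passed below those lines. GALNT6 ranged from -0.03 to 0.06. With a pseudocount of 5, 21 genes of the 11 lists were at least 1.5-fold higher, against 32, and 3.54% of all genes were at least 2-fold higher and 3.25% lower. Protein-coding genes only gave 4.57% lower, and recovered reads 6.66% higher and 4.03% lower. Depth limits GALNT3 and GALNT5, with 83 and 67 reads and with 0 and about 11.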

Other observations

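Proteins that single GALNT enzymes are known to modify were listed after their values were seen, so they describe these libraries only. TNFRSF10A and TNFRSF10B, the TRAIL receptors that GALNT14 modifies, were 59.3 TPM and 303 TPM after XPR1 siRNA, against 139 TPM and 639 TPM in control, 2.35-fold lower (2.15 to 2.56) and 2.11-fold lower (2.04 to 2.17). SPP1, which encodes osteopontin, a target of GALNT1 in mouse bone, was 299 TPM after XPR1 siRNA and 49.5 TPM in control, 6.04-fold higher (5.48 to 6.66). FN1, a target of GALNT6, was 5109 TPM after XPR1 siRNA and 5898 TPM in control. NOTCH1, a target of GALNT11, was 9.26 TPM after XPR1 siRNA and 13.1 TPM in control. PLTP, a target of GALNT2, was 3.30 TPM after XPR1 siRNA and 5.97 TPM in control, and APOC3 was at 0 in both libraries.

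In the list of mucins and other O-glycosylated proteins, 15 of 32 averaged 1 TPM or more. Of these, 5 were at least 1.5-fold higher and 2 lower, where 21.7% of all genes were higher and 16.6% lower. Besides surface proteins the list holds the secreted matrix proteins FN1 and TNC. TNC was among the lower, at 157 TPM after XPR1 siRNA and 453 TPM in control. CD24, a small mucin-like surface protein, was 353 TPM after XPR1 siRNA and 14.5 TPM in control, 24.4-fold higher (21.1 to 28.4), and it has near-identical pseudogenes whose reads could be counted with it. MCAM, an adhesion molecule, was 123 TPM after XPR1 siRNA and 27.3 TPM in control, and PODXL, a sialomucin, was 8.43 TPM after XPR1 siRNA and 1.93 TPM in control. CD44, the hyaluronan receptor, was 699 TPM after XPR1 siRNA and 2255 TPM in control. Of the gel-forming mucins, named after their values were seen, MUC2, MUC5AC, MUC5B and MUC6 were each below 1 TPM in both libraries. POGLUT2 and POGLUT3, which attach glucose to EGF-like repeats, were 44.1 TPM and 109 TPM after XPR1 siRNA, against 13.4 TPM and 40.5 TPM in control.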
